A study of Mus musculus with 2 samples.

Results

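Sc1 is the earlier and smaller of the pair of spermatocyte clusters in this mouse testis dataset, named here after its high level of Stra8. Its members were taken from the authors' cell table, in which 229 of 12408 cells carry the name Sc1. Of these, 130 came from the WT library (2.51% of its 5170 cells, exact binomial 95% interval 2.11 to 2.98) and 99 from the Tex13a-KO library (1.37% of 7238 cells, 1.11 to 1.66). Both groups are adult C57BL/6 mice (C57BL/6N in the study's methods), and the KO animals lack all exons of Tex13a, an X-linked germ cell gene, after CRISPR/Cas9 editing. For each genotype, testes of 3 mice were pooled into 1 suspension of all collagenase I-released testicular cells and made into 1 microwell bead library. Each genotype is therefore 1 library. Nothing could be tested between genotypes, every interval covers counting error of unique molecular identifiers (UMIs) only, and the 2 shares of cells describe 2 suspensions. The clusters were made by the authors from the same genes, so the differences between clusters are given as a description.

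Meiosis begins when a differentiated spermatogonium answers retinoic acid by switching on Stra8, a DNA-binding regulator of the meiotic entry programme. After the last replication of DNA, in leptotene and zygotene, cohesin-based chromosome axes form, Spo11 cuts the DNA, repair proteins bind the breaks, and the synaptonemal complex begins to join homologous chromosomes. In the pachytene stage that follows, the X and Y chromosomes are packed into the sex body and their genes are silenced.

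Sc1 held 1020887 UMIs in WT and 749010 in KO. The median Sc1 cell had 6212.5 UMIs in WT and 6395 in KO, close to Sg, the spermatogonial cluster (6133 and 5859), and well under Sc2, the later spermatocyte cluster (11862 and 11467.5). With every cell thinned to 3000 UMIs, the median number of genes per Sc1 cell was 1633 in WT and 1638 in KO (2602.5 and 2589 unthinned). Thinned Sg cells held 1674 and 1689 genes, and thinned Sc2 cells 1618.5 and 1611. Mitochondrial transcripts made up a median of 2.19% (WT) and 2.59% (KO) of the UMIs of an Sc1 cell, against 2.10% and 2.17% in Sg and 0.902% and 0.992% in Sc2. No barcode was shared by the libraries. The deposited matrix names no rows, and 5476 of 25065 symbols could be assigned to 1 row only. These symbols hold 74.6% (WT) and 75.2% (KO) of the Sc1 UMIs. The symbol Tex13a could stand for 7 rows, so the deletion was not checked here.

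Transcripts of later germ cells were also present in Sc1. The 28 members read of the round and elongating spermatid list, such as Prm1, Prm2 and Tnp1, made up 5.26% of Sc1 UMIs in WT and 5.57% in KO. The same list made up 5.17% and 5.13% in Sg, 2.01% and 1.82% in Sc2, and 34.1% and 33.6% in Sd8, a spermatid cluster. The share varied strongly between Sc1 cells, with a median of 1.43% (WT) and 1.51% (KO) and a 90th percentile of 17.7% and 18.2%. It exceeded 5% in 31 of 130 WT cells and 26 of 99 KO cells. Somatic markers were near 0 in Sc1. Of the Leydig list, 4 of 10 symbols had 1 row and held 0.00118% (WT) and 0.00174% (KO) of Sc1 UMIs, and of the peritubular, endothelial and blood list 7 of 21 held 0.00392% and 0.00401%. Of the Sertoli list, 5 of 20 symbols held 0.0579% and 0.0611%, nearly all of it Ctsl, a cathepsin that is not confined to Sertoli cells. Many defining somatic markers were among the symbols without 1 row and were not analysed here.

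Stra8 was higher in Sc1 than in any of the other 12 clusters in both libraries. Its level, in UMIs per 1e6 UMIs of the cluster (counts per 1e6, CPM), was 850 in Sg, 4287 in Sc1 (exact Poisson 95% interval 4161 to 4416) and 2.11 in Sc2 of WT. In KO it was 757 in Sg, 4453 in Sc1 (4303 to 4606) and 4.95 in Sc2. Sc1 thus lay 5.04-fold (WT) and 5.88-fold (KO) above Sg, and the log2 ratio to Sc2 was 10.91 and 9.79. The label fits the summed level but not each cell. A Stra8 UMI was read in 81 of 130 WT cells of Sc1 (62.3%, 53.4 to 70.7) and in 46 of 99 KO cells (46.5%, 36.4 to 56.8). In Sg, at nearly the same depth, the shares were 62.6% and 60.9%, so Sc1 was not set apart by the share of cells with a Stra8 UMI. Among Sd8 spermatids, where the gene is not known to be used, the shares were 1.29% and 1.66%.

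The gene lies on the plus strand of chr6:34920163-34939344 in GENCODE on GRCm38. RefSeq's window of 250 bases before to 50 bases after its start site holds the retinoic acid receptor half-site AGGTCA 2 times on the sense strand, shown with the half-site in capitals to give the sequence context of the gene that names the cluster. The first lies 194 and the second 38 bases before the RefSeq start, on GRCm38.p6. That start lies inside the GENCODE interval given above, and so do both sites.
Stra8, chr6:34920742-34920771, plus strand: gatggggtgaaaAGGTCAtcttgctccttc
Stra8, chr6:34920898-34920927, plus strand: gcctggggtaccAGGTCAgttttttacctg
On either strand, 18.1% of all 27025 genes with such a window hold this motif.

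The other regulators of meiotic entry were split between the clusters. Dazl, an RNA-binding protein that makes germ cells competent for meiosis, measured 1746 CPM in Sg, 2601 in Sc1 and 221 in Sc2 of WT, and 1752, 2478 and 126 CPM in KO. Tex15, needed for transposon silencing and for repair of meiotic breaks, measured 375, 852 and 8.72 CPM in WT and 479, 904 and 6.45 CPM in KO. Both were therefore already present in Sg. In Sc2 Tex15 was nearly gone, while Dazl was still read in 61.7% (WT) and 53.2% (KO) of cells, against 99.2% and 96.0% in Sc1. Hells, a chromatin remodeller of DNA methylation, was lower in Sc1 (1003 and 820 CPM) than in Sg (1105 and 1206 CPM), with the wider gap in KO. In Sc2 it was far lower (58.7 and 41.9 CPM). Rec8, the meiotic kleisin of cohesin, was rare in every one of these clusters, with 14.7 and 21.4 CPM in Sc1, 10.4 and 9.67 CPM in Sg and 1.55 and 0.393 CPM in Sc2. Of 20 listed entry regulators 7 were read, that is, had 1 row and at least 50 UMIs over Sg, Sc1 and Sc2 in each library. In both libraries 2 of them, Stra8 and Ythdc2, were at least 2-fold higher in Sc1 than in Sg, and 5 were at least 2-fold higher than in Sc2.

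**Figure D1:**
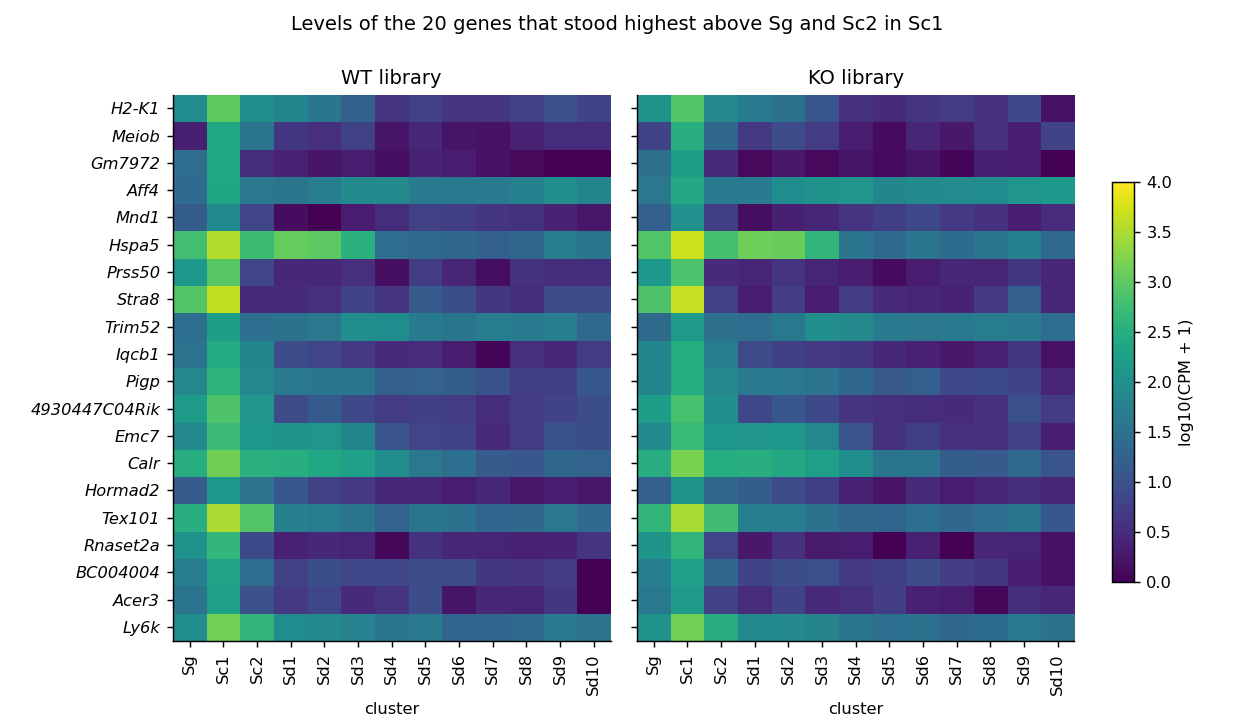
Heat map of the 20 genes whose smallest log2 ratio of Sc1 over Sg and Sc2 was largest, in each of the 13 clusters (columns) of the WT (left) and KO (right) library; colour gives log10 of CPM plus 1. Sc1 is the brightest column for all 20 genes in both libraries, with Stra8 at 4287 and 4453 CPM.

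Across all 4333 genes read, 79 (1.82%) were at least 2-fold higher in Sc1 than in both Sg and Sc2 in both libraries. Against Sg alone 222 genes (5.12%) were higher by this measure and 278 (6.42%) lower, and against Sc2 alone 1156 (26.7%) and 1144 (26.4%). For 74 of the 79, Sc1 had the highest level of all 13 clusters in both libraries. Together they made up 4.11% (WT) and 4.42% (KO) of Sc1 UMIs, 0.912% and 1.03% of Sg UMIs and 0.948% and 0.850% of Sc2 UMIs. The gap to Sc2 depends on scaling. Trimmed mean of M values (TMM) scaling lowers every log2 ratio of Sc1 to Sc2 by 0.85 (WT) and 1.02 (KO) and moves those to Sg by no more than 0.02. With it, 44 of the 79 genes still passed.

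Among these genes were 3 of recombination, Meiob, Mnd1 and Brca2. Meiob, which binds single-stranded DNA at meiotic breaks, had 2 and 8 UMIs in Sg (1.22 and 5.52 CPM), 255 and 236 in Sc1 (250 and 315 CPM) and 34.0 and 21.1 CPM in Sc2. Its log2 ratio to Sg was 7.29 (5.81 to 10.73) in WT and 5.72 (4.83 to 7.06) in KO. Mnd1, a partner of the DMC1 recombinase in strand invasion, measured 14.0, 82.3 and 5.91 CPM in Sg, Sc1 and Sc2 of WT and 15.9, 105 and 4.48 CPM in KO. Brca2, which loads recombinases on DNA, measured 143, 366 and 75.5 CPM in WT and 151, 332 and 78.7 CPM in KO. Of 18 recombination genes read, all 18 were higher in Sc1 than in Sg in both libraries, against 33% of all genes read, and 10 of them were at least 2-fold higher. The median log2 ratio was 1.39 (WT) and 1.22 (KO), against -0.12 and -0.08 over all genes read. Spo11, the nuclease that makes the breaks, was among the 10 but was higher still in Sc2, with 42.1 and 32.0 CPM in Sc1 and 143 and 138 CPM in Sc2. Against Sc2 the list's median was 0.55 and 0.63, and -0.30 and -0.40 with TMM scaling, so no direction is given.

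Among the 79 were also 6 genes of chromosome axes and the synaptonemal complex. Sycp3, an axis protein, measured 454, 3409 and 1054 CPM in Sg, Sc1 and Sc2 of WT and 548, 4315 and 1041 CPM in KO. Sycp1, which forms the transverse filaments between homologues, measured 1138, 4168 and 1366 CPM in WT and 1254, 4395 and 1000 CPM in KO. Both therefore had a sharp maximum in Sc1 at levels close to that of Stra8. Hormad1, an axis protein that guards unsynapsed chromosomes, measured 209, 1967 and 926 CPM in WT and 335, 2726 and 966 CPM in KO. Its relative Hormad2 measured 13.4, 125 and 32.9 CPM in WT and 15.9, 113 and 20.4 CPM in KO. Six6os1 (4930447C04Rik), a central element protein, measured 160, 784 and 122 CPM in WT and 173, 689 and 92.1 CPM in KO. Of 20 list members read, 11 were at least 2-fold higher than in Sg and 0 lower, and 6 were at least 2-fold higher than in both neighbours. The median ratio to Sg was 1.61 and 1.40 (log2), and that to Sc2 was 1.62 and 1.58, or 0.76 and 0.55 with TMM scaling. Smc3, a cohesin subunit, measured 531 and 525 CPM in Sg, 775 and 712 in Sc1 and 30.7 and 22.7 in Sc2, so it differed from Sg by less than 2-fold. Rad21, the mitotic kleisin, measured 145 and 164 CPM in Sg and only 16.7 and 17.4 CPM in Sc1.

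The gene with the largest smallest ratio to both neighbours was H2-K1, a major histocompatibility class I gene whose reads may be shared with related class I genes. It measured 86.5, 1007 and 92.4 CPM in Sg, Sc1 and Sc2 of WT and 111, 864 and 72.6 CPM in KO. Prss50, a testis protease, measured 136, 925 and 5.91 CPM in WT and 135, 745 and 2.04 CPM in KO. With every cell thinned to 3000 UMIs it was read in 87.7% (WT) and 78.8% (KO) of Sc1 cells, in 19.2% and 28.2% of Sg cells and in 1.64% and 0.670% of Sc2 cells, so in Sc1 more cells had a Prss50 UMI than a Stra8 UMI (60.0% and 44.4% when thinned). Tex101, a cell surface protein of germ cells, measured 336, 3139 and 850 CPM in WT and 416, 2944 and 599 CPM in KO. Its partner Ly6k measured 88.9, 1399 and 408 CPM in WT and 108, 1431 and 333 CPM in KO. Gml2, of the same family, measured 6.09, 220 and 113 CPM in WT and 11, 235 and 72.4 CPM in KO. Tex101, Ly6k and Prss50 stood on the pachytene list and were the only 3 of its 39 members read that were at least 2-fold higher in Sc1 than in both neighbours.

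RefSeq promoter windows were found for 63 of the 79 genes (79.7%), under the 80% needed for a share over the set, so the check of motifs over the set was void. Windows with CNCCTCAG, a motif bound by STRA8, are shown for the genes Prss50, Hormad2 and Sycp1, with the motif in capitals on the antisense strand. It is present on either strand in 9.12% of all 27025 genes with a window and 11.6% of the 3418 genes read with one. A match is no evidence of binding.
Prss50, chr9:110857789-110857818, plus strand: ttagaaattagCTGAGGCGaggcataggga
Hormad2, chr11:4441173-4441202, minus strand: agcaaggcctgCTGAGGGGccaaccttaga
Sycp1, chr3:102936051-102936080, minus strand: ttccaggaggttCTGAGGGGaagctcacgg

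Another 9 of the 79 are genes of protein entry and folding in the endoplasmic reticulum. Hspa5, the main chaperone of that compartment, measured 610, 3496 and 551 CPM in Sg, Sc1 and Sc2 of WT and 814, 4928 and 650 CPM in KO. Calr, a calcium-binding chaperone of glycoproteins, measured 312, 1344 and 345 CPM in WT and 305, 1570 and 300 CPM in KO. Emc7, of the complex that inserts membrane proteins, measured 71.9, 532 and 136 CPM in WT and 78.0, 518 and 130 CPM in KO. A list of such genes was drawn up after these values were seen and supports nothing by itself. Of its 27 members read, 11 were at least 2-fold higher in Sc1 than in Sg and 1 lower, and 9 were higher than in both neighbours. Besides these 3, the 9 are Canx, Pdia6, Dnajc3, Manf, Ssr2 and Ssr4. The median log2 ratio was 0.75 (WT) and 0.81 (KO) to Sg and 0.73 and 1.06 to Sc2, but with TMM scaling that to Sc2 was -0.12 in WT and 0.04 in KO.

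Several other genes among the top 20 belong to no list. Aff4, a scaffold of the transcription elongation machinery, measured 23.8, 225 and 38.1 CPM in Sg, Sc1 and Sc2 of WT and 37.3, 262 and 44.2 CPM in KO. Gm7972, a predicted gene, measured 25.6, 237 and 2.39 CPM in WT and 29, 174 and 2.12 CPM in KO. Rnaset2a, a lysosomal ribonuclease with a near-identical copy, measured 111, 442 and 7.03 CPM in WT and 117, 431 and 5.74 CPM in KO. Gm7972 and Rnaset2a therefore shared with Prss50 a near loss in Sc2, while Aff4 kept a level in Sc2 like that in Sg.

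**Figure D2:**
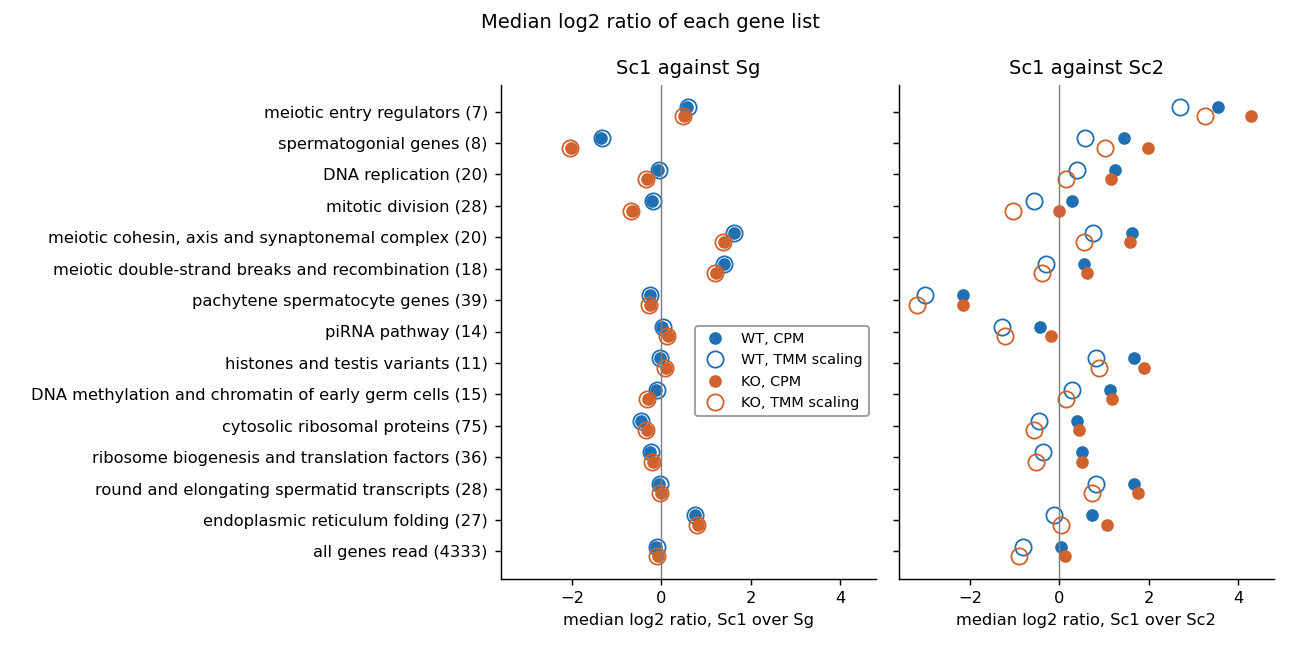
Median log2 ratio of Sc1 over Sg (left) and Sc1 over Sc2 (right) for each gene list (members read in brackets) in WT (blue) and KO (orange), with CPM (filled) and TMM scaling (open). Recombination genes stood at 1.39 and 1.22 above Sg and pachytene genes at -2.16 in both libraries against Sc2, and the 2 scalings separate only against Sc2.

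Most spermatogonial genes read were lower in Sc1 than in Sg. Of 39 listed spermatogonial genes 8 were read, and 5 of the 8 were at least 2-fold lower in Sc1 than in Sg in both libraries and 0 higher. Crabp1, which binds retinoic acid, measured 447 and 370 CPM in Sg, 44.1 and 34.7 in Sc1 and 1.97 and 0.629 in Sc2. Uchl1, a deubiquitinase used as a spermatogonial marker, measured 511 and 416 CPM in Sg, 73.5 and 54.7 in Sc1 and 12.1 and 7.15 in Sc2. Both were thus lower at each step from Sg to Sc2. Ccnd2, a cyclin of mitotic cells, had 214 and 80 UMIs in Sg and 1 UMI in Sc1 of each library (130 and 55.2 CPM against 0.98 and 1.34 CPM). Its log2 ratio was -6.59 (-12.37 to -4.56) in WT and -4.96 (-10.69 to -2.85) in KO. Outside the spermatogonial list, Hes1, an effector of Notch signalling, had 155 and 73 UMIs in Sg and 5 and 1 in Sc1. Sdc4, a cell surface proteoglycan that is also not on the list, had 309 and 92 UMIs in Sg and 5 and 3 in Sc1. Kit, the receptor of differentiating spermatogonia, was low in both clusters (22.5 and 33.8 CPM in Sg, 12.7 and 18.7 in Sc1) and did not reach 2-fold. Id4, of the spermatogonial list, went the other way, with 24.4 and 25.5 CPM in Sg, 63.7 and 42.7 in Sc1 and 209 and 184 in Sc2. With the 8 members the median ratio to Sg was -1.34 and -2.03, and 0.14 in WT with strict row names. Against Sc2 its sign was not stable over the alternatives.

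Over all genes read, 5.12% were at least 2-fold higher in Sc1 than in Sg and 6.42% lower, shares that apply to each such count here. Of 20 replication genes read, 2 were higher by this measure and 2 lower, with a median log2 ratio of -0.08 and -0.32. The 2 higher genes were Ccne2, a cyclin of S phase entry, and Dtl, which marks replication factors for destruction. The 2 lower genes were Mcm7, of the replicative helicase, and Dnmt1, which copies DNA methylation and measured 217 and 229 CPM in Sg, 106 and 82.8 in Sc1 and 22.4 and 21.5 in Sc2. Of 28 mitotic division genes read, 0 were at least 2-fold higher than in Sg and 4 lower (Ube2c, Cdca3, Incenp and Tubb4b). By any amount, 20 of the 28 were lower than in Sg in both libraries and 6 higher, against 45.9% and 33% of all genes read, and their median log2 ratio was -0.20 (WT) and -0.66 (KO). Of 11 histone genes read, 3 were at least 2-fold higher than in Sg and 0 lower. By any amount 5 were higher than in Sg in both libraries and 4 lower, with a median log2 ratio of -0.04 (WT) and 0.11 (KO). Only 2 of the 11 were at least 2-fold higher than in both neighbours. Hist1h1e, a linker histone, measured 40.2, 131 and 3.09 CPM in Sg, Sc1 and Sc2 of WT and 64.9, 162 and 2.67 CPM in KO. Hist1h4c, a core histone gene, measured 7.31, 35.3 and 2.67 CPM in WT and 10.4, 34.7 and 1.81 CPM in KO. Cytosolic ribosomal protein genes leaned lower than in Sg, with a median log2 ratio of -0.46 (WT) and -0.32 (KO) over 75 genes, of which 7 were at least 2-fold lower and 0 higher. Their sign against Sc2 was positive with CPM (0.40 and 0.45) and negative with TMM scaling (-0.46 and -0.58).

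Most pachytene genes were lower in Sc1 than in Sc2. Of 39 read, 28 were at least 2-fold lower in Sc1 than in Sc2 and 4 higher, with a median log2 ratio of -2.16 in both libraries and of -3.01 and -3.18 with TMM scaling. Piwil1, a PIWI protein that binds pachytene piRNAs, measured 17.7 and 17.3 CPM in Sg, 38.2 and 34.7 in Sc1 and 532 and 441 in Sc2. Ldhc, the testis lactate dehydrogenase, measured 865 and 861 CPM in Sc1 and 7320 and 7543 in Sc2, but it was also read at 1286 and 1300 CPM in Sg. Pou5f2, a spermatocyte transcription factor, had 1 UMI in WT and 0 in KO Sc1, and measured 177 and 216 CPM in Sc2. A few were already above their Sg level. Hspa2, a chaperone that disassembles the synaptonemal complex, measured 84.0 and 97.4 CPM in Sg, 249 and 267 in Sc1 and 952 and 874 in Sc2. Mybl1, the transcription factor that drives pachytene genes, measured 12.2 and 15.2 CPM in Sg, 116 in Sc1 of both libraries and 136 and 146 in Sc2. Mybl1 was thus already near its Sc2 level, while Piwil1 was not. Over all genes read, 30 (0.692%) were at least 2-fold higher in Sc1 than in Sg and again in Sc2 than in Sc1 in both libraries, and 60 (1.38%) were lower at both steps.

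In the other direction, 105 genes (2.42%) were at least 2-fold lower in Sc1 than in both neighbours in both libraries. Of these, 19 had no UMI in Sc1 of at least 1 library. With a count of 0 set to the 3 UMIs that it allows, 89 of the 105 stayed past 2-fold. Ddit4l, a stress-responsive inhibitor of mTOR signalling, had 13 and 13 UMIs in Sg (7.92 and 8.98 CPM), 0 in Sc1 of both libraries and 390 and 871 in Sc2 (54.9 and 68.5 CPM). A count of 0 allows up to 2.94 CPM in WT and 4.01 CPM in KO. The level measured in Sc2 was 18.7-fold (WT) and 17.1-fold (KO) above these limits, and that measured in Sg 2.69-fold and 2.24-fold. These folds leave out the counting error of the Sg and Sc2 counts. With only 13 UMIs in Sg of each library, a 2-fold difference from Sg is therefore not certain. Isyna1, which makes inositol phosphate, dipped at a higher level, with 200, 41.1 and 394 CPM in Sg, Sc1 and Sc2 of WT and 186, 29.4 and 351 CPM in KO. D16Ertd472e measured 50.5, 11.8 and 52.0 CPM in WT and 50.4, 6.68 and 57.8 CPM in KO.

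The X chromosome separated Sc1 from Sc2 more than any autosome. X-linked genes held 1.23% (1.21 to 1.26) of the placed UMIs of Sc1 in WT and 1.19% (1.16 to 1.22) in KO, next to 1.20% and 1.24% in Sg and 0.143% and 0.113% in Sc2. Sc1 was thus near Sg but 8.59-fold (WT) and 10.5-fold (KO) above Sc2. Autosomes differed from Sc2 by at most 2.06-fold, the largest being chromosome 16, which carries Prm1 and Prm2. Of 79 X-linked genes read, 72 (91.1%) were at least 2-fold higher in Sc1 than in Sc2 in both libraries, against 1055 of 4191 autosomal genes (25.2%). With TMM scaling these were 46 (58.2%) and 348 (8.30%). At least 8-fold higher with CPM were 32 X-linked and 100 autosomal genes. The 72 include genes highest in spermatids, such as Akap4 (211 and 320 CPM in Sc1, 64.6 and 74.0 in Sc2). Against Sg, 2 X-linked genes (2.53%) and 218 autosomal genes (5.2%) were at least 2-fold higher. The 10 X-linked genes with most UMIs in Sc1 were also left out. The share was then 0.694% and 0.676% in Sc1, 0.749% and 0.753% in Sg and 0.109% and 0.0829% in Sc2. That choice takes out genes high in Sc1, so no direction against Sg is given. The next values keep all X-linked genes but leave out cells over 5% spermatid UMIs. The X-linked share was 0.993% and 0.902% in Sc1, 0.951% and 1.0% in Sg and 0.0711% and 0.0641% in Sc2.

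**Figure D3:**
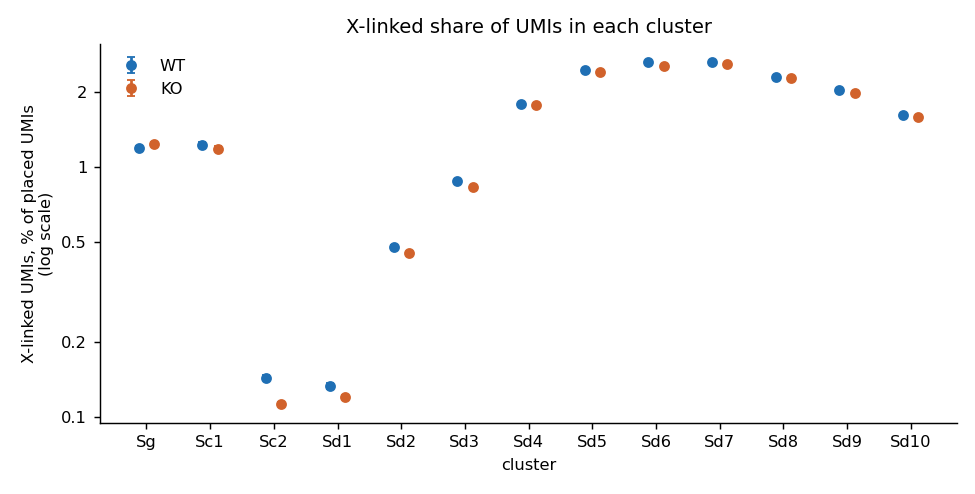
X-linked UMIs in percent of UMIs from genes placed on a chromosome (log axis) in the 13 clusters of WT (blue) and KO (orange), with exact binomial 95% intervals that are mostly smaller than the points. Sc1 sat at 1.23% and 1.19%, Sg at 1.20% and 1.24%, and Sc2 at 0.143% and 0.113%.

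Some of the X-linked genes with many UMIs in Sc1 showed this course most sharply. Map7d2, a microtubule-associated protein gene, measured 550 and 610 CPM in Sg, 527 and 506 in Sc1 and 2.25 and 1.73 in Sc2. Scml2, a Polycomb-related protein gene of the male germ line, measured 290 and 331 CPM in Sg, 423 and 415 in Sc1 and 2.81 and 1.34 in Sc2. Rpl39, a ribosomal protein gene, measured 249 and 233 CPM in Sg, 438 and 363 in Sc1 and 1.55 and 1.41 in Sc2. Taf1, the largest subunit of TFIID, measured 171 and 172 CPM in Sg, 166 and 143 in Sc1 and 0.141 and 0.472 in Sc2. These 4 genes differed by less than 2-fold between Sc1 and Sg and were all but gone in Sc2. X-linked genes highest in spermatids kept more in Sc2. H2afb1 measured 360 and 385 CPM in Sc1 and 95.5 and 88.5 in Sc2, and Cypt1 190 and 183 against 60.5 and 39.6. Rpl36a was lower already in Sc1 (294 and 258 CPM, against 653 and 574 in Sg). Ssr4, of the translocon at the endoplasmic reticulum, was higher in Sc1 (188 and 170 CPM) than in Sg (46.9 and 53.9). Tsga8, a spermatid gene, was the only X-linked gene lower in Sc1 than in Sc2 in both libraries, at 25.5 and 14.7 CPM against 28.1 and 17.9, a difference within counting error.

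Sc1 cells were not alike. In WT, 49 of 130 had no Stra8 UMI (37.7%, 29.3 to 46.6), 22 had 1 to 9 and 59 had 10 or more (45.4%, 36.6 to 54.3). In KO, 53 of 99 had none (53.5%, 43.2 to 63.6), 9 had 1 to 9 and 37 had 10 or more (37.4%, 27.9 to 47.7). Few cells lay near the limit of 10, with 6 WT cells and 1 KO cell between 7 and 13 UMIs. The limit was set after the values were seen, and it gives ranges of 1 gene, not cell types. Cells without a Stra8 UMI had fewer UMIs (median 5443 and 6062) than cells with 10 or more (7023 and 7880).

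The X-linked share differed between these ranges. It was 0.861% (0.825 to 0.898) in WT cells and 0.960% (0.924 to 0.996) in KO cells without a Stra8 UMI. Over the UMIs of all cells with 10 or more it was 1.45% in both libraries (1.41 to 1.48 and 1.41 to 1.51). The cells without a Stra8 UMI also spread widely, from 0.0354% to 2.53% in WT and from 0.0389% to 2.35% in KO. The cells at the upper ends held 17.7% (WT) and 24.6% (KO) spermatid UMIs, and those at the lower ends 1.06% and 1.64%. Not every cell with a high share was so, as a WT cell at 1.98% held 0.798%. In 22 WT and 20 KO cells of Sc1 the X-linked share was no higher than in the Sc2 cell at the 90th percentile of its library, and of these 2 and 1 had a Stra8 UMI. Spermatid transcripts made up 6.26% and 7.37% of the UMIs of cells without a Stra8 UMI and 3.72% and 3.62% of those of cells with 10 or more. Their part in the differences between the ranges was not tested.

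**Figure D4:**
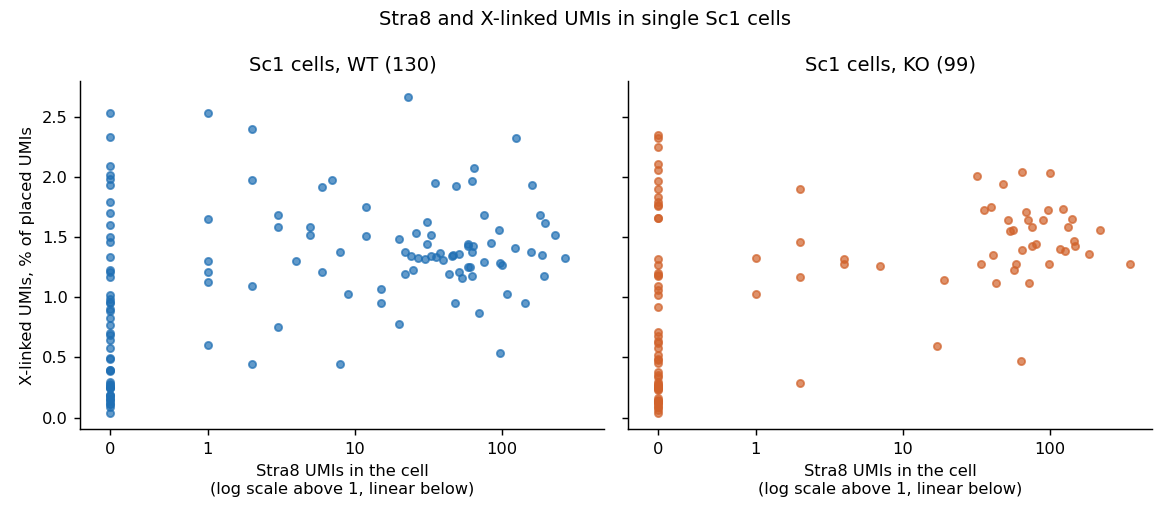
Each point is 1 Sc1 cell of WT (left, 130 cells) or KO (right, 99 cells), placed by its Stra8 UMIs (log axis above 1, linear below) and its X-linked UMIs in percent of placed UMIs. Cells without a Stra8 UMI, 49 and 53 of them, run from 0.0354% to 2.53% and from 0.0389% to 2.35%, while cells with 10 or more run from 0.541% to 2.66% (median 1.35%) and from 0.470% to 2.04% (median 1.46%).

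Other genes differed with Stra8 in the same way in both libraries. Of 1918 genes with enough UMIs, 172 (8.97%) were at least 2-fold higher in cells with 10 or more Stra8 UMIs and 187 (9.75%) at least 2-fold higher in cells with none. Cited1, an X-linked transcriptional coregulator, went from 1 UMI in each library (3.0 and 2.72 CPM) in cells without Stra8 to 570 and 615 CPM in cells with 10 or more. Uchl1 went from 3.0 and 16.3 CPM to 137 and 105 CPM, and Crabp1 had 0 UMIs in cells without Stra8 and measured 78.8 and 77.3 CPM in the others. Rec8 likewise had 0 UMIs in cells without Stra8 and 28.1 and 49.5 CPM with it. The cells without Stra8 held 333268 (WT) and 367547 (KO) UMIs, so 0 there allows a higher level than 0 over all of Sc1. The cohesin genes Smc3 (234 and 231 against 1071 and 1209 CPM) and Smc1b (915 and 830 against 2687 and 2644 CPM) and Brca2 (144 and 166 against 471 and 504 CPM) were also higher with Stra8. The 20 replication genes made up 0.564% and 0.585% of UMIs with Stra8 and 0.269% and 0.238% without.

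Other genes, named after their values were seen, were higher in cells without a Stra8 UMI. Meiob measured 501 and 533 CPM in them and 73.1 and 55.7 CPM in cells with 10 or more. Gml2 measured 576 and 441 CPM without and 37.5 and 18.6 CPM with Stra8. Sycp3 measured 5470 and 6073 CPM without and 2241 and 2307 with, and Sycp1 5962 and 5850 without and 2944 and 2375 with. Spo11 had 69.0 and 46.3 CPM without and 5.63 and 15.5 with. Hspa2 had 510 and 449 CPM without and 113 and 77.3 with. Hspa5 (4957 and 6701 against 2368 and 2484 CPM) and Calr (2274 and 2261 against 761 and 804 CPM) also stood higher without Stra8. Axis and synaptonemal complex genes made up 2.10% (WT) and 2.23% (KO) of UMIs without Stra8 and 1.53% and 1.45% with 10 or more. Recombination genes made up 0.503% and 0.50% without and 0.611% and 0.624% with. With 1 to 9 Stra8 UMIs the lists made up 1.87% and 2.37%, and 0.654% and 0.740%, in the same order. The recombination value was thus largest in that middle range, which held only 22 WT and 9 KO cells. In WT its interval (0.614 to 0.695) overlapped that with 10 or more (0.590 to 0.632). In KO the 2 intervals did not overlap (0.672 to 0.813 and 0.597 to 0.652). Members of the recombination list also differed, with Meiob, Spo11 and Hspa2 higher without Stra8 and Brca2 higher with it. Some genes of Sc1 differed by less than 2-fold between cells without Stra8 and cells with 10 or more. Dazl measured 2869 and 2476 CPM without and 2670 and 2456 with, and Tex101 3679 and 3162 without and 2712 and 2573 with. Prss50 went with Stra8, at 399 and 375 CPM without and 1226 and 1126 with.

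Few genes differed in size between the genotypes within Sc1. Of 4289 genes with at least 10 UMIs in both libraries together, 97 (2.26%) were at least 2-fold higher and 115 (2.68%) at least 2-fold lower in KO. Among the 2253 with at least 100 UMIs, 1 (0.0444%) was higher and 2 (0.0888%) lower. The cells of the 2 libraries were not spread alike over the Stra8 ranges (37.7% of WT and 53.5% of KO cells without a Stra8 UMI), and the part of this in the values that follow was not tested. Topors, a ubiquitin and SUMO ligase, had 47 UMIs in WT and 73 in KO (46.0 and 97.5 CPM, log2 KO to WT 1.07, 0.53 to 1.64). Dnajc10, a disulphide reductase of the endoplasmic reticulum, measured 68.6 and 136 CPM (0.98, 0.54 to 1.45). Ndufs1, of respiratory complex I, had 106 and 36 UMIs (104 and 48.1 CPM, -1.10, -1.70 to -0.55), and Tusc2 had 81 and 29 (79.3 and 38.7 CPM, -1.02, -1.70 to -0.41). H1fx, a linker histone variant, had the most UMIs of the 10 lowest, with 429 in WT and 169 in KO (420 and 226 CPM, -0.90, -1.16 to -0.64), while in Sg it measured 200 and 223 CPM. These genes were picked as the extremes of 2253, and their intervals make no allowance for that choice.

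Some genes that mark Sc1 were close between the libraries and others were not. Stra8 differed by 0.05 on the log2 scale (-0.01 to 0.12), Sycp1 by 0.08 (0.01 to 0.14) and Tex101 by -0.09 (-0.17 to -0.01). Hspa5 (0.50, 0.43 to 0.56), Hormad1 (0.47, 0.38 to 0.56) and Sycp3 (0.34, 0.27 to 0.41) were higher in KO. Mcm5, of the replicative helicase, was lower (-0.53, -0.90 to -0.17). Of 75 ribosomal protein genes 13 had a KO to WT ratio above 1, with a median log2 ratio of -0.12, against 2261 of all 4289 genes (52.7%) and a median of 0.03. Of 20 replication genes 5 were above 1 (median -0.21), and of 28 spermatid genes 21 (median 0.09). In cells with 10 or more Stra8 UMIs, replication genes made up 0.564% of UMIs in WT and 0.585% in KO. With 1 to 9 they made up 0.448% and 0.451%, and without a Stra8 UMI 0.269% and 0.238%.

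**Figure D5:**
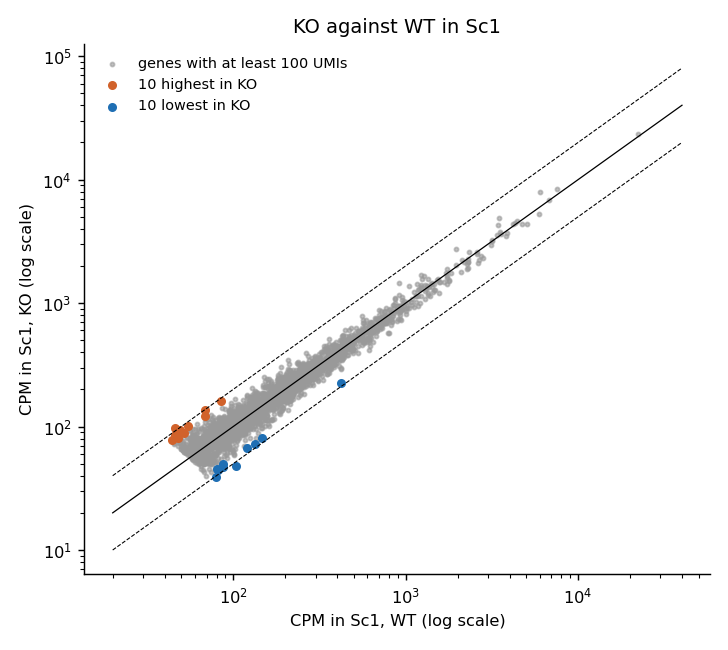
Level in Sc1 of WT (horizontal) and KO (vertical) in CPM on log axes for the 2253 genes with at least 100 UMIs, with the line of equal levels (solid) and 2-fold lines (dashed). The 10 highest (orange) and 10 lowest (blue) KO to WT ratios are marked, and 1 and 2 genes respectively lie past 2-fold.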

How the data were processed

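Cell suspensions from WT and Tex13a-KO testes were processed with the GEXSCOPE microwell kit, 1 library per genotype. Per the authors' methods and processing notes, reads were checked with FastQC 0.11.7, trimmed with fastp 1, aligned to the mouse genome with STAR 2.5.3a, assigned to genes with featureCounts 1.6.2 and collapsed to UMIs, and cells were filtered, integrated and clustered in Seurat 3.2.3. The deposited matrix holds raw UMI counts per row and cell, and the deposited cell table gives each cell's UMI count, library, cluster and percent of mitochondrial UMIs. No cell was removed here and no doublet caller was run.

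The symbol list (25065 lines) is shorter than the matrix (26758 rows). The 30 mitochondrial symbols were placed, in order, on the rows whose sum equals the mitochondrial percent of all 12408 cells. Between them only rows seen in under 5 cells were allowed to lack a symbol, and 5476 symbols with 1 possible row were used. This is an inference from the files. A stricter version, in which any row may lack a symbol, left 2648.

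The UMIs of all cells of a cluster were added up within each library and given as CPM of all UMIs there. Log2 ratios used a prior of 1 UMI shared by depth, and folds were read from them. Intervals (95%) are exact Poisson, exact binomial or exact conditional binomial and cover counting error only. Genes read had at least 50 UMIs over Sg, Sc1 and Sc2 in each library, and were called at 2-fold in both. Named genes are members of the lists, the 20 highest by their smallest ratio to both neighbours with at least 50 UMIs in Sc1 of each library, the 10 lowest, the 10 largest differences from each neighbour in each direction, and the 10 highest and lowest KO to WT ratios with at least 100 UMIs. The members and lists were chosen with earlier results of these data known. The Stra8 ranges, the 10 to 20 genes named for them and the endoplasmic reticulum list were chosen after the values were seen. Positions are from GENCODE on GRCm38 and promoters from RefSeq on GRCm38.p6. Name placement and ratios were tested on simulated data. In the simulation only rows allowed to lack a symbol did so, so the naming rule itself was not tested. Analyses used Python 3.11.15, numpy 2.4.6, scipy 1.17.1, pandas 2.3.3, R 4.3.3 and edgeR 4.0.16 (TMM factors only). With 1 library per genotype no test, standard error or p-value is given.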

Additional observations from a re-analysis of the deposited data

How the results depend on the processing

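The alternatives were TMM scaling, the mean of single-cell CPM, totals without spermatid and mitochondrial genes, the 5% of cells with most UMIs left out, cells thinned to 3000 UMIs, strict row names, other minimum counts, a prior of 10 UMIs and, added after the data were seen, the X-linked share without its 10 most abundant genes and all values without cells over 5% spermatid UMIs.

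Stra8 in Sc1 (4287 CPM in WT and 4453 in KO) was 1666 and 1708 CPM with TMM scaling, 3850 and 4077 as a mean over cells, 4636 and 4842 with the reduced totals, 4056 and 3942 without the cells with most UMIs, 3833 and 4037 thinned, and 4844 and 5502 without spermatid-rich cells. The 79 genes higher than both neighbours became 44 with TMM scaling and 42 with strict names, and without spermatid-rich cells 92, with 74 of the 79 among them. The 105 lower genes became 54 with strict names, 178 without a minimum and 163 without spermatid-rich cells. The X-linked share was 1.20% and 1.13% as a mean over cells, 1.27% in WT with the reduced totals, 1.11% in KO without the cells with most UMIs, 1.18% and 1.13% thinned, 1.20% and 1.11% with strict names, 0.694% and 0.676% without 10 genes, and 0.993% and 0.902% without spermatid-rich cells. The spermatid share was 5.0% and 4.97% as a mean over cells, 5.31% and 5.07% without the cells with most UMIs, 5.01% and 4.96% thinned, 4.72% and 4.99% with strict names, and 1.33% and 1.38% without spermatid-rich cells. Genes at least 2-fold apart between KO and WT (4.94%) were 5.75% as a mean over cells, 6.12% thinned, 4.05% with strict names, 12.9% without a minimum, 0% at a minimum of 200 UMIs, 1.42% with a prior of 10 and 6.61% without spermatid-rich cells. Unthinned, the median genes per Sc1 cell were 2602.5 and 2589.

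The spermatogonial median changed sign against Sg in WT with strict names (0.14), and against Sc2 with strict names (-2.26 and -2.83), in WT without spermatid-rich cells (-0.55) and in KO when thinned (-0.29); 8 genes or fewer stand behind it. Of 560 list medians under alternatives, 34 had another sign. Of 131 values of the 20 leading genes, 2 fell under 2-fold, Emc7 and Ly6k with TMM scaling, and the cause of these moves was not tested. The KO to WT sign of Fam71f1 and of Smpd5 turned in 1 alternative each. No paired analysis was possible because each genotype has 1 library and no test was made. At this depth a count of 0 in Sc1 allows 2.94 CPM in WT and 4.01 CPM in KO.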

Other observations

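Genes of the piRNA pathway, which silences transposons in germ cells, were mixed in Sc1. Of 14 read, 1 (Mybl1) was at least 2-fold higher than in Sg and 1 (BC048502) lower, while 6 were lower than in Sc2 and 2 higher. Over all genes read, 5.12% were higher and 6.42% lower than in Sg, and 26.4% lower and 26.7% higher than in Sc2. Mael, a nuage protein of that pathway, measured 308, 356 and 928 CPM in Sg, Sc1 and Sc2 of WT and 274, 340 and 888 CPM in KO. Ddx4, the germ cell RNA helicase, measured 160, 190 and 292 CPM in WT and 200, 304 and 314 CPM in KO, so its level in KO Sc1 was already close to that in Sc2.

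Of 15 genes of DNA methylation and chromatin read, 2 (Dnmt1 and Dnmt3a) were at least 2-fold lower in Sc1 than in Sg and 0 higher. Over all genes read, 6.42% were lower than in Sg by this measure and 5.12% higher. Dnmt3a, a methyltransferase that sets new methylation, measured 83.4 and 83.5 CPM in Sg, 23.5 and 33.4 in Sc1 and 0.703 and 1.10 in Sc2. Hsp90ab1, a cytosolic chaperone, was the 1 of 36 biogenesis and translation genes read that was at least 2-fold lower than in Sg, with 2894 and 3027 CPM in Sg, 1112 and 1224 in Sc1 and 454 and 398 in Sc2.

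Of 3 class I presentation genes read, H2-K1 alone was at least 2-fold higher in Sc1 than in Sg in both libraries. B2m, the partner chain of class I molecules, measured 32.3 and 18 CPM in Sg, 43.1 and 57.4 in Sc1 and 23.2 and 20.6 in Sc2. This short list was drawn up after the level of H2-K1 was seen.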
